A study of Mus musculus with 18 samples.

Results

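The integrin and laminin subunits are the genes through which cells in these tumors can build and grip basement membrane. They were taken as the protein-coding genes of the tumor count table named Itga, Itgb, Lama, Lamb or Lamc with a subunit number or letter, which gave 37 of 43346 genes, 26 integrin and 11 laminin subunits. Expression was measured by RNA sequencing in 12 mouse liver tumors in 4 groups of 3. YAP-SY tumors had received myr-AKT, a membrane-bound active form of the kinase AKT, together with YAP-SY, a form of the transcriptional coactivator YAP with the changes S127A and Y357F. YAP-S tumors had received myr-AKT with YAP-S, which has S127A alone, so all 12 share activated AKT and the S127A change. Within each model the tumors are labelled as cholangiocarcinoma (CCA), a cancer with bile duct features, or as mixed, and the study asks whether Y357 of YAP matters differently in bile duct cells and in hepatocytes. The groups were YAP-SY CCA (tumors 1, 6 and 8), YAP-S CCA (tumors 3, 4 and 5), YAP-SY mixed (tumors 3, 5 and 9) and YAP-S mixed (tumors 2, 7 and 9), and values of a group are given in that order of tumors. A cell line, SB1, whose genotype label is YAP-S-CCA, was measured in 3 samples from 1 line and has a count table of its own. The SY1 line was not analysed here. No age, strain, sex or promoter of the plasmids is given in the sources used here, and nothing says whether tumors came from separate mice. The p-values therefore measure the spread between these tumors.

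Laminins are secreted as trimers of an alpha, a beta and a gamma chain and form a sheet that is part of basement membranes. Integrins are cell surface receptors made of an alpha and a beta subunit, each encoded by its own gene, and the pair decides the ligand: some bind laminin, some collagen, some the RGD sequence of fibronectin, vitronectin and latent TGF-beta, and some, found on white blood cells, bind other cells. In liver, bile ducts rest on a laminin-rich basement membrane, whereas hepatocytes face a space with little of it, and bile duct cells carry epithelial integrins such as those with Itgb4, Itgb6 or Itgb8 that hepatocytes largely lack. YAP acts in the nucleus with TEAD factors, and genes for matrix and adhesion proteins are among its known targets. The transcripts of a subunit in a whole tumor sum over epithelial cells, fibroblasts, endothelium and white blood cells, so fewer cells of a type and less RNA per cell cannot be told apart in these data.

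The start regions of 4 members are shown because epithelial cells use all 4 and they stood apart in the comparison of CCA tumors. Itgav and Lama5 were among the members with lower transcripts in YAP-SY CCA, and Itgb1 and Lamb3 were among those that did not pass the test. Each window runs from 250 bases before to 50 bases after a transcript start, is taken from RefSeq on GRCm38.p6, and is written 5′ to 3′ on the gene's strand. Capitals mark GGAATG or its complement CATTCC, the core of the site that TEAD factors bind, and GGGCGG or its complement CCGCCC, the GC box bound by Sp factors. The windows are chr2:83724147-83724446 on the plus strand for Itgav, chr2:180225810-180226109 on the minus strand for Lama5, chr8:128685404-128685703 on the plus strand for Itgb1 and chr1:193301993-193302292 on the plus strand for Lamb3.
Itgav: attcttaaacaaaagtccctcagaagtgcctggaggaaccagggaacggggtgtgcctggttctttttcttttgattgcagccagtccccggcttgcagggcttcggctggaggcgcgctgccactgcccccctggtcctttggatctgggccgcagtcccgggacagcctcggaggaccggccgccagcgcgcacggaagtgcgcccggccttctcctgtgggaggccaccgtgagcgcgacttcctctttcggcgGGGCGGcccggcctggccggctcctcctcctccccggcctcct
Lama5: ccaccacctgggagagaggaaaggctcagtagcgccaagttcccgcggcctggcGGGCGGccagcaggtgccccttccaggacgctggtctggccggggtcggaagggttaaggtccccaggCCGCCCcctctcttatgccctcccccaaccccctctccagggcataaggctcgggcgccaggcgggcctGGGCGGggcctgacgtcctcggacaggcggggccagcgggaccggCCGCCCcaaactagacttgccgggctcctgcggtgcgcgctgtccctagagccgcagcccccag
Itgb1: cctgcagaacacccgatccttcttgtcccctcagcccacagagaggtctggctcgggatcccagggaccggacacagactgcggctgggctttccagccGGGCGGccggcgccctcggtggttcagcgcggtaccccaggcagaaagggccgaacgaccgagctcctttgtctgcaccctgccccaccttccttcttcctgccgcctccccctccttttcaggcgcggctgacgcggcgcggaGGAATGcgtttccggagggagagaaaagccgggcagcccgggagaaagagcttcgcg
Lamb3: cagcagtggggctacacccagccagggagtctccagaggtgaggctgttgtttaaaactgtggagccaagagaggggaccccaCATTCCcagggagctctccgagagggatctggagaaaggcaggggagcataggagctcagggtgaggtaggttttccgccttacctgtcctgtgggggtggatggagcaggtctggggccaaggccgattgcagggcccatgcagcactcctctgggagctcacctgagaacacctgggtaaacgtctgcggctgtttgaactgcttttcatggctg
The TEAD core stands 7 bases before the start of Itgb1 and 167 bases before the Lamb3 start shown, and neither the Itgav nor the Lama5 window holds it. Lamb3 has a second window for another start, chr1:193301744-193302043, which holds none of the motifs searched; the window printed was picked because it holds the TEAD core. Lama5 has 4 GC boxes, Itgb1 has 1, and Itgav has 1 that begins 7 bases after its start. Of the 37 members, 23 had a window in the table, 26 windows in all. GGAATG on either strand stood in 3 of these windows (11.5%), those of Itga10, Itgb1 and Lamb3, against 14.7% of all 32851 windows. TGANTCA, the site of AP-1 factors, stood in 3 (11.5%), of Itga3, Itga9 and Itgax, against 7.81% of all windows. GGGCGG on either strand stood in 12 (46.2%), of 11 members, against 35.7% of all windows. These are matches of letters in 300 bases and say nothing about binding.

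The tumor libraries held between 30656499 and 130035221 counts and the SB1 libraries between 25341968 and 30541185, so that 3 counts amount to 0.0233 to 0.0998 CPM in a tumor. CPM, the share of a library's counts scaled to a common total, here refer to libraries scaled by TMM, a scaling to the bulk of the genes, with factors of 0.775 to 0.832 in YAP-SY CCA tumors and 1.15 to 1.29 in YAP-S CCA tumors. The markers of cell types differed between the groups. Summed over 8 hepatocyte markers, levels were 132233 to 154669 CPM in YAP-SY CCA, 45414 to 54732 CPM in YAP-S CCA, 83139 to 108642 CPM in YAP-SY mixed and 77346 to 83559 CPM in YAP-S mixed tumors. Thus the YAP-SY tumors labelled CCA held more transcripts of these markers than any other tumor. Against YAP-S CCA, 7 of the 8 rose past the threshold, as did 18.3% of all genes tested. Summed over 8 cholangiocyte markers, levels were 18.9 to 69.7 CPM in YAP-SY CCA, 172 to 208 CPM in YAP-S CCA, 106 to 139 CPM in YAP-SY mixed and 71.2 to 143 CPM in YAP-S mixed tumors, so every YAP-SY CCA tumor lay below all other tumors. On both sums the 3 tumors of this group thus went against the label CCA, which may be in doubt; the groups below follow the labels as given, and each comparison with YAP-SY CCA rests on that label. YAP-SY CCA tumor 1 stood apart by how few genes it detected: 18207 genes had a count there, where the other 11 tumors had 20440 to 24391.

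In CCA, integrin and laminin transcripts were lower in YAP-SY tumors across most of the family. Of the 37 members, 24 fell past the threshold and none rose, and their log2 fold changes, YAP-SY over YAP-S, had a median of -1.23, against -0.00 for all genes tested. The test was edgeR's quasi-likelihood F-test with Benjamini-Hochberg adjustment over all 18318 genes tested and a threshold of 0.05. All 37 members entered it. Of all genes tested, 39.1% passed in either direction and 20.8% fell. By family, 18 of 26 integrin subunits fell (median -1.29) and 6 of 11 laminin chains fell (median -1.16). The 3 YAP-SY CCA tumors lay below the 3 YAP-S CCA tumors without overlap in 26 members and above them in 1, Itga1. Among all genes tested, 28.3% lay below and 24.3% above, 52.6% in all. The summed level of the 26 integrins was 715 to 774 CPM in YAP-SY CCA and 1223 to 1270 CPM in YAP-S CCA tumors. The 11 laminins summed to 168 to 233 CPM in YAP-SY CCA and 515 to 538 CPM in YAP-S CCA tumors. Without YAP-SY CCA tumor 1, 24 members fell and 1 rose. With libraries scaled by size only, the median over all genes was -0.57, and 32 members fell, with a median of -1.80.

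**Figure D1:**
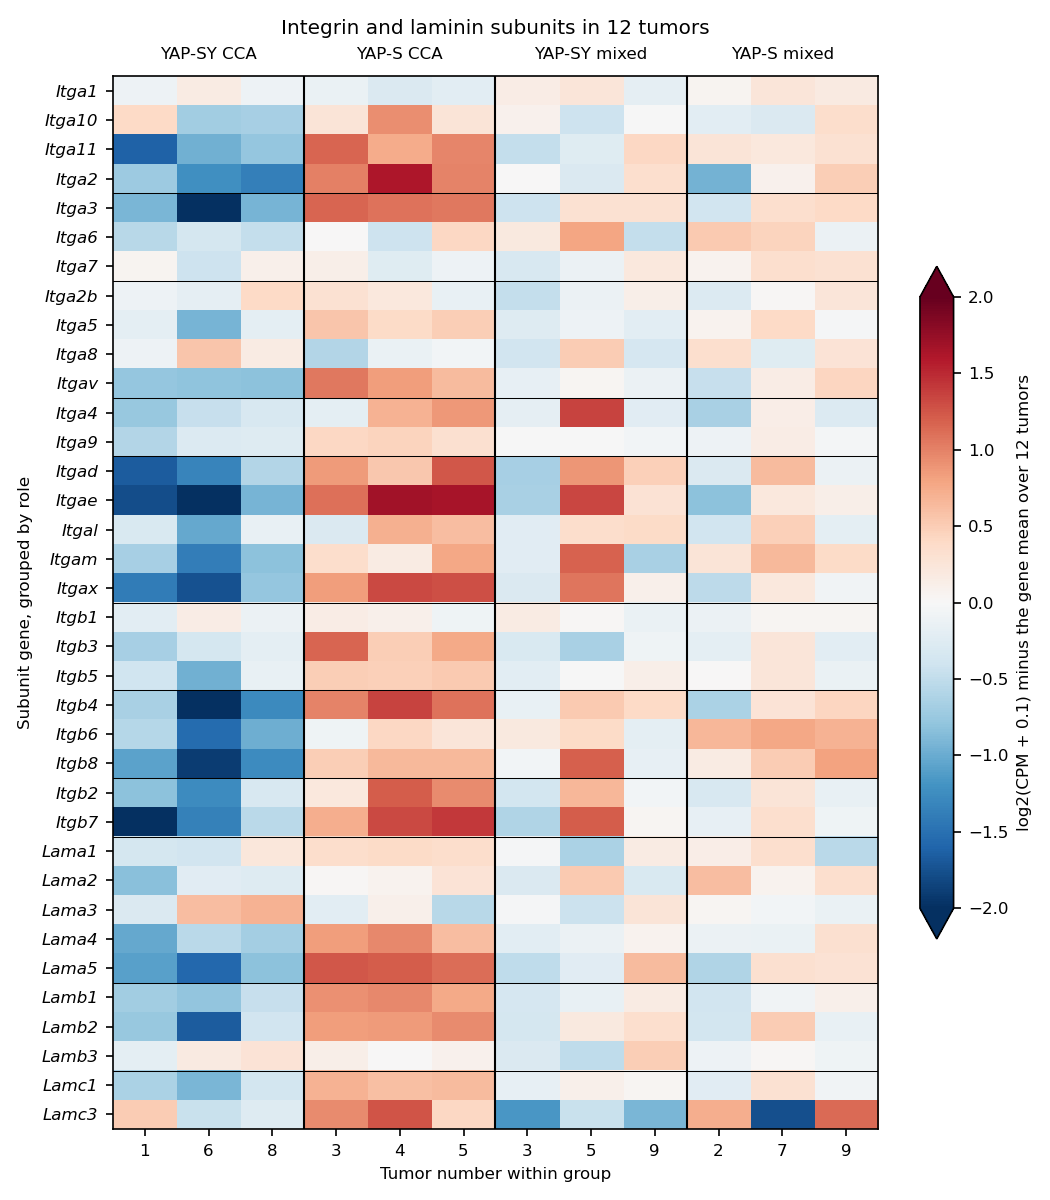
Each row is 1 of 36 members, grouped by role, and each column a tumor. Color gives log2(CPM + 0.1) minus the member's mean over the 12 tumors, with values beyond 2 drawn in the end colors. The YAP-SY CCA columns are mostly blue and the YAP-S CCA columns mostly red, and the 6 mixed columns are paler.

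Of the 5 laminin alpha chains, Lama5 and Lama4 fell. Lama5, the alpha chain of most epithelial and vascular laminins (ENSMUSG00000015647, mm10 chromosome 2, 180176373 to 180225859), held 20.9, 14.9 and 25.1 CPM in YAP-SY CCA tumors, against 105, 103 and 97.1 CPM in YAP-S CCA tumors. It was 5.01-fold lower in YAP-SY CCA (log2 fold change -2.33, SE 0.32, adjusted p 0.000262), with a wide gap between the groups. Lama5 had 31.3, 37.8 and 69.1 CPM in YAP-SY mixed tumors, against 29.2, 55.6 and 54.5 CPM in YAP-S mixed tumors, and the groups overlapped. Lama4, the chain of endothelial and mesenchymal laminins, held 15.7, 22.1 and 19.98 CPM in YAP-SY CCA tumors, against 57.3, 62.8 and 49.3 CPM in YAP-S CCA tumors, a 2.93-fold lower level (log2 fold change -1.55, SE 0.17, adjusted p 0.000121). The mixed tumors lay between the CCA groups, with 27.7, 29.7 and 33.7 CPM in YAP-SY mixed tumors, against 29.4, 29.4 and 40.2 CPM in YAP-S mixed tumors. Lama3, the alpha chain of the laminin that anchors stratified epithelia, went the other way without passing the test: it held 7.86, 14.8 and 15.7 CPM in YAP-SY CCA tumors, against 8.32, 10.4 and 6.55 CPM in YAP-S CCA tumors (log2 fold change 0.60, SE 0.27, adjusted p 0.0947). The groups overlapped through tumor 1, and without that tumor Lama3 rose, by 0.86 on the log2 scale. Lama3 had 9.55, 7.12 and 11.6 CPM in YAP-SY mixed tumors, against 9.91, 9.34 and 8.8 CPM in YAP-S mixed tumors. Lama1 and Lama2, chains of early embryonic and of muscle and mesenchymal laminins, were lower without overlap in YAP-SY CCA but missed the threshold, at log2 fold changes of -0.51 (adjusted p 0.156) and -0.55 (adjusted p 0.0958).

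Among the beta chains, Lamb1 and Lamb2 fell and Lamb3 did not. Lamb1, the partner of Lamc1 in most laminins, held 24.1, 22.5 and 28.3 CPM in YAP-SY CCA tumors, against 73.2, 76.2 and 65.7 CPM in YAP-S CCA tumors (log2 fold change -1.52, SE 0.16, adjusted p 0.000107). It had the smallest adjusted p of all members. Its mixed tumors lay between the CCA groups, with 30.9, 35.1 and 43.6 CPM in YAP-SY mixed tumors, against 30.0, 36.9 and 41.8 CPM in YAP-S mixed tumors. Lamb2, the chain of vessel and glomerular laminins, held 25.2, 13.4 and 32.5 CPM in YAP-SY CCA tumors, against 76.1, 76.6 and 82.6 CPM in YAP-S CCA tumors. It was 3.31-fold lower (log2 fold change -1.73, SE 0.30, adjusted p 0.00108), YAP-SY CCA tumor 6 being the lowest. Lamb2 had 33.5, 48.6 and 53.7 CPM in YAP-SY mixed tumors, against 33.1, 60.9 and 38.4 CPM in YAP-S mixed tumors. Lamb3, found with Lama3 in a single laminin, held 3.4, 4.44 and 4.73 CPM in YAP-SY CCA tumors, against 4.23, 3.91 and 4.14 CPM in YAP-S CCA tumors (log2 fold change 0.03, SE 0.26, adjusted p 0.934), and the groups overlapped. The mixed tumors were at a like low level, with 3.19, 2.73 and 5.53 CPM in YAP-SY mixed tumors, against 3.61, 3.97 and 3.69 CPM in YAP-S mixed tumors.

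Among the gamma chains, Lamc1 fell. Lamc1, the gamma chain of nearly all laminins, held 59.5, 49.3 and 71.9 CPM in YAP-SY CCA tumors, against 151, 141 and 143 CPM in YAP-S CCA tumors (log2 fold change -1.27, SE 0.17, adjusted p 0.000226). The mixed tumors lay between, with 83.1, 99.4 and 95.0 CPM in YAP-SY mixed tumors, against 79.6, 114 and 88.5 CPM in YAP-S mixed tumors. Lamc3 was between 1.46 and 12.5 CPM over all tumors and did not pass (log2 fold change -0.93, SE 0.54, adjusted p 0.193).

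Levels of different chains were compared as CPM per kilobase of the gene length given in the table. Lamc1 was the most abundant laminin chain in every tumor group, at means of 7.28 CPM per kilobase in YAP-SY CCA, 17.5 in YAP-S CCA, 11.2 in YAP-SY mixed and 11.4 in YAP-S mixed tumors. Among the alpha chains, Lama5 made up 31.4 ± 7.75% in YAP-SY CCA and 55.7 ± 1.78% in YAP-S CCA tumors (SD, n = 3 each). Lama3 made up 20.5 ± 4.68% of the alpha chains in YAP-SY CCA and 4.85 ± 0.85% in YAP-S CCA tumors. Lama4 held a like share in both, 28.0 ± 3.90% in YAP-SY CCA and 29.1 ± 1.79% in YAP-S CCA tumors. Lamb3 made up 9.45 ± 3.16% of the beta chains in YAP-SY CCA and 2.99 ± 0.14% in YAP-S CCA tumors. Shares sum to 100% within a class, so a chain that held its level gains share where others fell.

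**Figure D2:**
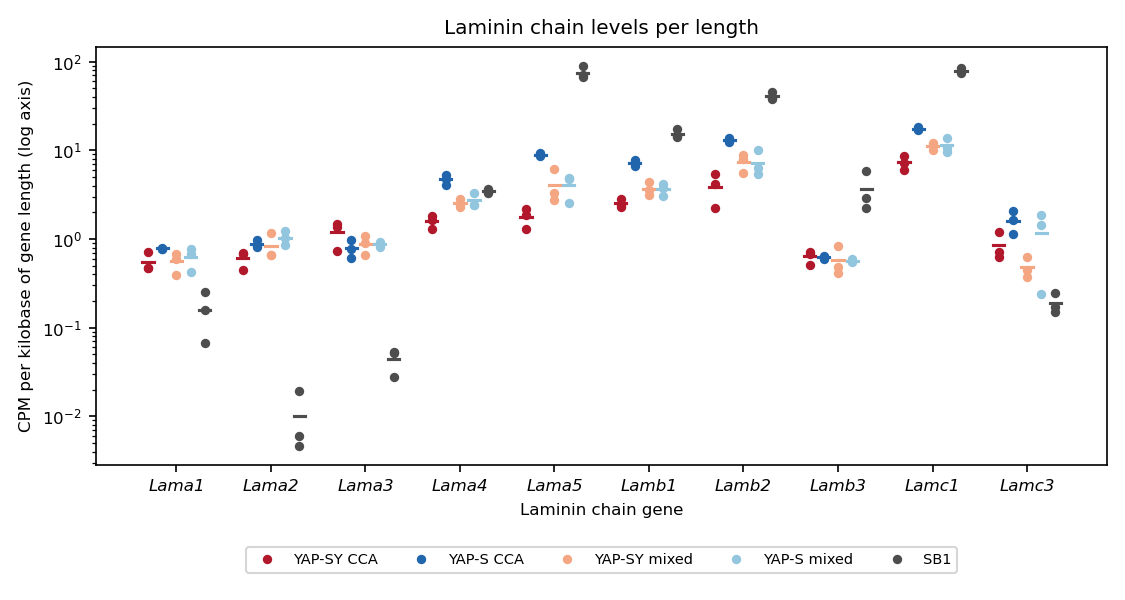
Points are samples and short lines group means, as CPM per kilobase of gene length on a log axis, for 10 laminin chains in the 4 tumor groups and SB1. Lama5, Lamb1, Lamb2 and Lamc1 are lowest in YAP-SY CCA and far higher in SB1 than in any tumor, whereas Lama2 and Lama3 are near 0 in SB1.

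Of 8 fibroblast and stellate markers 7 fell in YAP-SY CCA, and of 8 cholangiocyte markers 5 fell, where 20.8% of all genes tested fell. The fibroblast and stellate markers summed to 428 to 603 CPM in YAP-SY CCA and 1864 to 2354 CPM in YAP-S CCA tumors, and none of the 8 was at 0. The endothelial markers, 2 of 8 higher and 2 lower, summed to 385 to 500 CPM in YAP-SY CCA and 295 to 413 CPM in YAP-S CCA tumors. The part of these cell type markers in the laminin result was not tested.

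The common integrin beta chain did not follow the family. Itgb1, which pairs with most alpha subunits and was the most abundant member per kilobase in every group (ENSMUSG00000025809, mm10 chromosome 8, 128685654 to 128733200), held 290.0, 374 and 309.8 CPM in YAP-SY CCA tumors, against 376, 364 and 317 CPM in YAP-S CCA tumors (log2 fold change -0.12, SE 0.14, adjusted p 0.539). The groups overlapped, and the mixed tumors were in the same range, with 379, 341 and 309 CPM in YAP-SY mixed tumors, against 311, 346 and 346 CPM in YAP-S mixed tumors. Under library size alone Itgb1 fell, by 0.69 on the log2 scale, beside a median of -0.57 over all genes. Of the subunits that Itgb1 pairs with to bind laminin, Itga3 fell and Itga6 and Itga7 did not pass. Itga3, the receptor subunit for epithelial laminins (ENSMUSG00000001507, mm10 chromosome 11, 95044474 to 95076801), held 20.2, 9.48 and 20.1 CPM in YAP-SY CCA tumors, against 86.2, 81.6 and 79.5 CPM in YAP-S CCA tumors. It was 4.97-fold lower (log2 fold change -2.31, SE 0.30, adjusted p 0.000212), and its highest YAP-SY CCA tumor lay below every other tumor of the series. Itga3 had 28.8, 47.1 and 47.6 CPM in YAP-SY mixed tumors, against 29.2, 48.6 and 50.4 CPM in YAP-S mixed tumors. Itga6, which also pairs with Itgb4, held 32.0, 37.1 and 33.9 CPM in YAP-SY CCA tumors, against 47.6, 35.3 and 63.0 CPM in YAP-S CCA tumors (log2 fold change -0.50, SE 0.29, adjusted p 0.188), with 1 YAP-S CCA tumor inside the range of the YAP-SY CCA tumors. Itga6 had 54.3, 82.0 and 33.9 CPM in YAP-SY mixed tumors, against 68.1, 64.4 and 43.5 CPM in YAP-S mixed tumors. Itga7, the laminin receptor of muscle, held 8.41 to 12.1 CPM in YAP-SY CCA and 9.58 to 12.3 CPM in YAP-S CCA tumors.

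Among the alpha subunits that bind collagen, Itga2 and Itga11 fell and Itga1 and Itga10 did not pass. Itga2, an epithelial and platelet collagen receptor, held 2.27, 1.57 and 1.42 CPM in YAP-SY CCA tumors, against 7.78, 11.9 and 7.7 CPM in YAP-S CCA tumors (log2 fold change -2.38, SE 0.37, adjusted p 0.000509). Itga2 had 3.82, 3.1 and 4.85 CPM in YAP-SY mixed tumors, against 1.92, 4.03 and 5.37 CPM in YAP-S mixed tumors, above the YAP-SY CCA and below the YAP-S CCA tumors except for an overlap with YAP-SY CCA at YAP-S mixed tumor 2. Itga1, the collagen receptor of mesenchymal and endothelial cells, held 43.6 to 52.8 CPM in YAP-SY CCA and 38.6 to 43.1 CPM in YAP-S CCA tumors (log2 fold change 0.20, SE 0.13, adjusted p 0.257). Itga11, a collagen receptor of fibroblasts, was at most 1.67 CPM in any tumor and 5.26-fold lower in YAP-SY CCA (log2 fold change -2.39, SE 0.42, adjusted p 0.00106). Itga10 shares 33.5% of its exon bases with the overlapping gene Gm42957 on the same strand, so its count is uncertain; it did not pass (log2 fold change -0.76, SE 0.32, adjusted p 0.0801).

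Of the alpha subunits that bind the RGD sequence, Itgav and Itga5 fell. Itgav, the subunit of the integrins that release active TGF-beta from its latent form (ENSMUSG00000027087, mm10 chromosome 2, 83724397 to 83806916), held 50.5, 49.3 and 48.7 CPM in YAP-SY CCA tumors, against 179.9, 154 and 134 CPM in YAP-S CCA tumors. The mean was 49.5 ± 0.917 CPM in YAP-SY CCA and 156 ± 22.9 CPM in YAP-S CCA tumors (SD, n = 3 each), a 3.15-fold lower level (log2 fold change -1.66, SE 0.19, adjusted p 0.000147). Itgav had 76.7, 89.1 and 79.9 CPM in YAP-SY mixed tumors, against 63.0, 95.7 and 116 CPM in YAP-S mixed tumors. Itga5, the fibronectin receptor subunit, held 59.8, 36.2 and 60.2 CPM in YAP-SY CCA tumors, against 101, 90.0 and 96.3 CPM in YAP-S CCA tumors (log2 fold change -0.88, SE 0.18, adjusted p 0.00275). Itga5 had 57.3, 64.1 and 59.2 CPM in YAP-SY mixed tumors, against 72.2, 90.7 and 68.0 CPM in YAP-S mixed tumors, without overlap and lower in YAP-SY, but this did not pass (adjusted p 0.999). Itga8, a subunit of stellate cells, was higher in YAP-SY CCA by 0.47 on the log2 scale and lower by 0.11 under library size alone, and passed under neither. Itga2b, the platelet fibrinogen receptor subunit, was at 1.86 to 3.53 CPM over all tumors and differed little (log2 fold change -0.07, SE 0.27, adjusted p 0.851).

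Of the beta subunits that pair with Itgav, Itgb3, Itgb5, Itgb6 and Itgb8 fell, and Itgb1 did not pass. Itgb5, a vitronectin receptor subunit of many cell types, held 80.3, 54.5 and 96.0 CPM in YAP-SY CCA tumors, against 149, 147 and 152 CPM in YAP-S CCA tumors (log2 fold change -0.96, SE 0.18, adjusted p 0.00182). Levels of Itgb5 were 91.2, 105 and 115 CPM in YAP-SY mixed tumors, against 107, 125 and 97.1 CPM in YAP-S mixed tumors. Itgb3, of platelets, vessels and osteoclasts, held 5.35, 6.71 and 7.43 CPM in YAP-SY CCA tumors, against 19.2, 12.1 and 14.5 CPM in YAP-S CCA tumors (log2 fold change -1.23, SE 0.23, adjusted p 0.00153). Both subunits lay lower in YAP-SY CCA without overlap. Itgb3 had 6.95, 5.44 and 8.08 CPM in YAP-SY mixed tumors, against 7.45, 10.2 and 7.41 CPM in YAP-S mixed tumors, all below the YAP-S CCA tumors. Itgb8, an epithelial and glial subunit that binds latent TGF-beta, held 4.64, 2.57 and 4.06 CPM in YAP-SY CCA tumors, against 14.0, 15.6 and 15.6 CPM in YAP-S CCA tumors (log2 fold change -1.997, SE 0.35, adjusted p 0.00108). Itgb8 had 9.48, 22.8 and 8.85 CPM in YAP-SY mixed tumors, against 11.1, 14.2 and 17.4 CPM in YAP-S mixed tumors, all above the YAP-SY CCA tumors. Itgb6, an epithelial subunit induced in reactive bile ducts, was low throughout. It held 0.589, 0.252 and 0.417 CPM in YAP-SY CCA tumors, against 0.858, 1.26 and 1.1 CPM in YAP-S CCA tumors (log2 fold change -1.34, SE 0.37, adjusted p 0.0126). Itgb6 had 1.06, 1.23 and 0.794 CPM in YAP-SY mixed tumors, against 1.51, 1.64 and 1.55 CPM in YAP-S mixed tumors. Itgb6 was lower without overlap in YAP-SY in both histologies, and its CCA call was lost when only the CCA tumors were fitted (adjusted p 0.0568).

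Itgb4, the partner of Itga6 in hemidesmosomes, held 5.35, 1.54 and 3.42 CPM in YAP-SY CCA tumors, against 16.8, 21.6 and 18 CPM in YAP-S CCA tumors (log2 fold change -2.44, SE 0.39, adjusted p 0.000659). All 3 YAP-SY CCA tumors lay below every other tumor, tumor 1 narrowly, and the mixed tumors held 7.55, 12.1 and 11.1 CPM in YAP-SY mixed tumors, against 5.41, 10.2 and 11.3 CPM in YAP-S mixed tumors. Of the 8 cholangiocyte markers, all lay lower in YAP-SY CCA without overlap and 5 passed, and YAP-SY CCA tumor 6 had no count of Cldn4. Among all genes tested, 28.3% lay lower without overlap and 20.8% fell past the threshold. The part of these markers in the fall of the epithelial integrin subunits was not tested.

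Itga9, a receptor subunit for tenascin and Vcam1, held 33.8, 42.3 and 42.8 CPM in YAP-SY CCA tumors, against 67.7, 69.7 and 63.9 CPM in YAP-S CCA tumors (log2 fold change -0.76, SE 0.12, adjusted p 0.000644). It was a modest difference with little spread within groups, and the 6 mixed tumors lay between, with 50.4, 50.8 and 49.0 CPM in YAP-SY mixed tumors, against 47.4, 56.2 and 49.5 CPM in YAP-S mixed tumors. Its relative Itga4, of lymphocytes and monocytes, was lower without overlap in YAP-SY CCA but did not pass (log2 fold change -1.04, SE 0.41, adjusted p 0.0635).

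The 5 alpha subunits listed as leukocyte integrins, Itgad, Itgae, Itgal, Itgam and Itgax, and the beta subunits Itgb2 and Itgb7 all fell in CCA. Of all genes tested, 20.8% fell. Itga4, also of white blood cells, was listed apart with Itga9 and did not pass. Itgb2, the beta subunit shared by the leukocyte integrins, held 12.5, 9.25 and 17.7 CPM in YAP-SY CCA tumors, against 25.8, 51.3 and 42.8 CPM in YAP-S CCA tumors (log2 fold change -1.60, SE 0.32, adjusted p 0.00241). Itgb2 had 17.2, 35.2 and 21.3 CPM in YAP-SY mixed tumors, against 17.7, 26.7 and 20.004 CPM in YAP-S mixed tumors. Itgax, the CD11c subunit of dendritic cells and some macrophages (ENSMUSG00000030789, mm10 chromosome 7, 128129547 to 128150656), held 8.43, 6.62 and 13.1 CPM in YAP-SY CCA tumors, against 40.0, 56.1 and 54.7 CPM in YAP-S CCA tumors. That is 5.35-fold lower (log2 fold change -2.42, SE 0.35, adjusted p 0.000393), and the mixed tumors held 18.3, 47.1 and 24.1 CPM in YAP-SY mixed tumors, against 15.6, 25.9 and 21.4 CPM in YAP-S mixed tumors. Itgam, the CD11b subunit of neutrophils and monocytes, held 5.19, 3.1 and 4.65 CPM in YAP-SY CCA tumors, against 10.6, 9.28 and 14.2 CPM in YAP-S CCA tumors (log2 fold change -1.39, SE 0.40, adjusted p 0.0158). Itgam had 7.08, 18.9 and 5.24 CPM in YAP-SY mixed tumors, against 9.97, 13.1 and 10.9 CPM in YAP-S mixed tumors, and YAP-SY mixed tumor 5 was the highest of all 12 tumors. Itgam shares 68.7% of its exon bases with the overlapping gene Gm49368 on the same strand, so its count is uncertain, and its call was lost without YAP-SY CCA tumor 6 or without YAP-S CCA tumor 5. Itgal, the CD11a subunit of lymphocytes, held 18.9, 11.5 and 21.1 CPM in YAP-SY CCA tumors, against 19.1, 38.0 and 35.9 CPM in YAP-S CCA tumors (log2 fold change -0.85, SE 0.31, adjusted p 0.0461). The groups overlapped, the mixed tumors held 19.96, 29.8 and 30.3 CPM in YAP-SY mixed tumors, against 17.8, 32.4 and 20.4 CPM in YAP-S mixed tumors, and the call was lost in 6 of 12 fits without 1 tumor.

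Itgae and Itgb7 form the receptor of lymphocytes and dendritic cells that reside in epithelia. Itgae held 0.793, 0.559 and 1.5 CPM in YAP-SY CCA tumors, against 6.5, 9.78 and 9.55 CPM in YAP-S CCA tumors, 9.05-fold lower in YAP-SY CCA (log2 fold change -3.18, SE 0.52, adjusted p 0.000732). Its mixed tumors ranged widely, with 1.86, 7.62 and 3.66 CPM in YAP-SY mixed tumors, against 1.64, 3.46 and 3.24 CPM in YAP-S mixed tumors. Itgb7 held 0.725, 1.48 and 2.67 CPM in YAP-SY CCA tumors, against 6.62, 10.03 and 10.6 CPM in YAP-S CCA tumors (log2 fold change -2.49, SE 0.50, adjusted p 0.00226). Levels of Itgb7 were 2.56, 9.22 and 4.04 CPM in YAP-SY mixed tumors, against 3.51, 4.97 and 3.72 CPM in YAP-S mixed tumors. Both were highest of the mixed tumors in YAP-SY mixed tumor 5. Itgad was at most 0.655 CPM in any tumor, with no count in YAP-SY CCA tumor 1, where 3 counts would be 0.068 CPM, and fell (log2 fold change -3.41, SE 0.91, adjusted p 0.0107). Of 7 white blood cell markers, 3 fell and 1 rose in YAP-SY CCA, where 20.8% of all genes tested fell and 18.3% rose. They summed to 275 to 379.5 CPM in YAP-SY CCA and 340 to 716 CPM in YAP-S CCA tumors, ranges that overlapped. Their sums were 382 to 676 CPM in YAP-SY mixed and 412 to 465 CPM in YAP-S mixed tumors. None of the 7 was at 0 in a tumor, and their part in the result was not tested. Of 7 platelet and megakaryocyte markers only Pf4, which fell, and Ppbp, which did not pass, had enough counts to be tested, and the list summed to 1.01 to 1.81 CPM in YAP-SY CCA and 2.08 to 2.34 CPM in YAP-S CCA tumors.

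**Figure D3:**
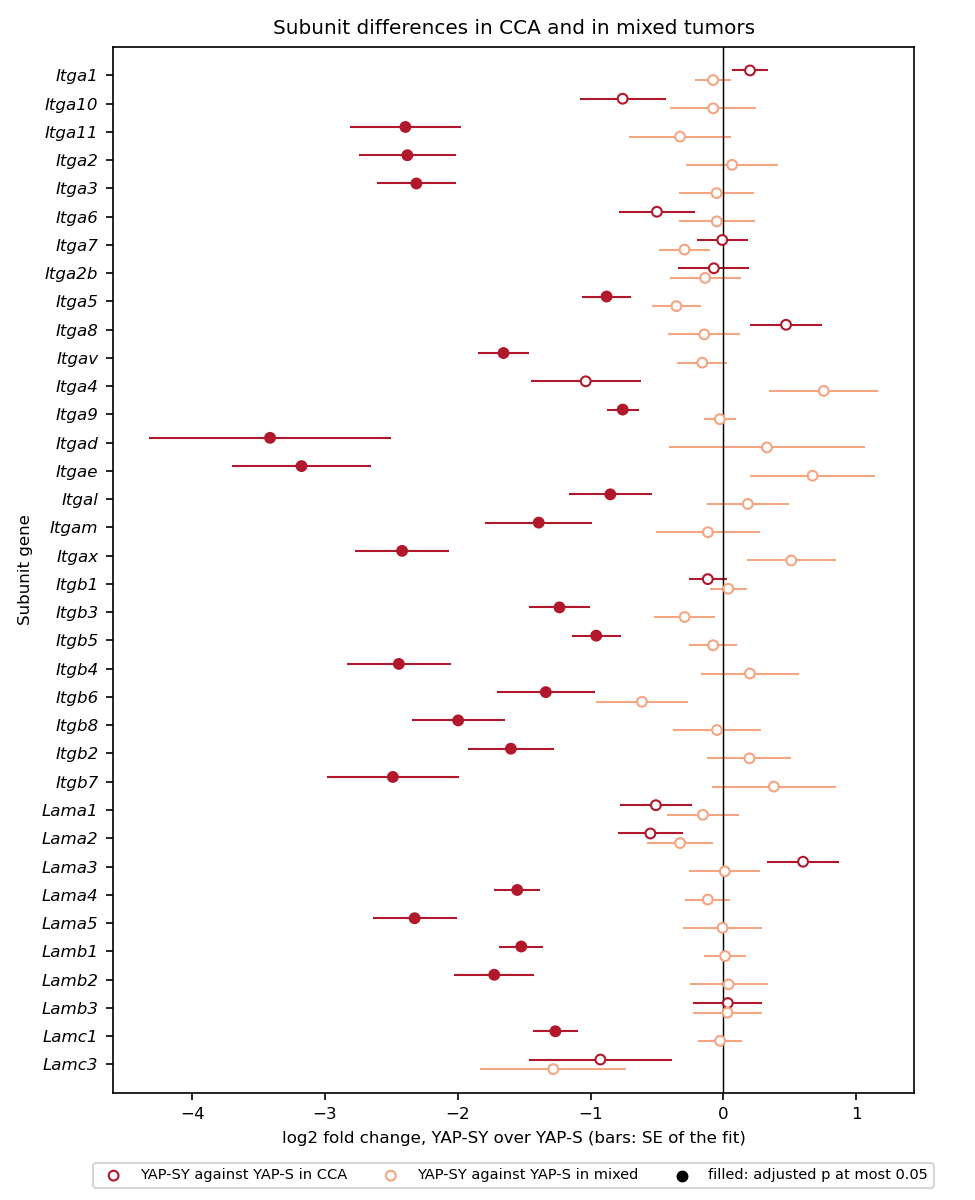
Points are log2 fold changes of 36 members, YAP-SY over YAP-S, in CCA (red) and in mixed tumors (light orange), with bars of 1 SE of the fit; filled points passed an adjusted p of 0.05. In CCA most members are filled, all of them left of 0, and in mixed tumors none is filled.

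In mixed tumors no member passed, as no gene of all 18318 tested did (0% called). The members' median log2 fold change was -0.05, and 1 member, Lamc3, had an unadjusted p under 0.05, as did 551 of all genes tested. DESeq2's Wald test called 4 genes higher and 7 lower over all genes and no member. Lamc3, a laminin gamma chain of skin and brain, held 2.26, 3.77 and 2.7 CPM in YAP-SY mixed tumors, against 8.64, 1.46 and 11.4 CPM in YAP-S mixed tumors, a difference of -1.28 (SE 0.55, adjusted p 0.999) in groups that overlapped. Without overlap between the groups were 2 members, Itga5 and Itgb6, both lower in YAP-SY, against 8.35% of all genes (4.05% lower and 4.3% higher). The integrins summed to 898 to 1088 CPM in YAP-SY mixed and 883 to 1073 CPM in YAP-S mixed tumors, and the laminins to 267 to 355 CPM in YAP-SY mixed and 271 to 372 CPM in YAP-S mixed tumors.

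The difference between the 2 effects was tested as an interaction in the same fit. Of the 37 members, 18 had a lower YAP-SY effect in CCA than in mixed tumors and none a higher one, with a median difference of -1.24, against 0.01 for all genes. Of all genes tested 15.2% passed in either direction, 10.2% in the lower and 5.02% in the higher one. The 18 comprised 13 integrin and 5 laminin subunits. The largest were Itgae at -3.85 (SE 0.70, adjusted p 0.00641) and Itgad at -3.74 (SE 1.18, adjusted p 0.0495). The Itgad call was lost in 10 of 12 fits that each left out 1 tumor, all but those without YAP-SY CCA tumor 8 or YAP-SY mixed tumor 3, with differences of -5.39 to -3.11, and in 3 of 7 other settings. Lamb1, at -1.54 (SE 0.23, adjusted p 0.00358), had the smallest p. The epithelial subunits Itga3 (-2.26), Itgb4 (-2.64), Itga2 (-2.45), Lama5 (-2.32) and Itgav (-1.50) were among them. Itga6 (-0.45, adjusted p 0.479), Itgb1 (-0.15, adjusted p 0.636), Itgb6 (-0.72, adjusted p 0.351), Lamb3 (0.00, adjusted p 0.997) and Lama3 (0.59, adjusted p 0.311) were not. Without YAP-S mixed tumor 2, 10 of the members passed.

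Within each model CCA was set against mixed. In YAP-SY, 5 members were lower in CCA than in mixed tumors and none was higher, against 2.7% of all genes lower and 0.207% higher (2.9% in either direction), with a median of -0.66. The 5 were Itgax (-1.67, adjusted p 0.0304), Itgae (-2.22, 0.0404), Itga3 (-1.31, 0.0373), Itgb4 (-1.58, 0.048) and Itgb8 (-1.87, 0.0228). None of the 5 passed in every alternative setting. Without overlap 18 members lay lower and 1 higher, against 12.1% and 7.99% of all genes (20.1% in either direction). In YAP-S, no member passed in the main edgeR fit, nor did any gene (0% called). At an unadjusted p under 0.05 were 17 members and 3636 of all genes. The smallest adjusted p of a member was 0.0525, for Lamb1. In that fit the members' median was 0.47, higher in CCA. Without overlap 17 members lay higher and 2 lower, against 20.2% of all genes higher and 17.6% lower (37.8% in all). With only those groups fitted, edgeR called 13 members higher and 1 lower, and 1602 of all genes higher and 791 lower. DESeq2's Wald test called 12 members higher in YAP-S CCA, and 1037 of all genes higher and 476 lower. These comparisons share tumors with the comparisons above. Over the 4 groups, YAP-SY CCA had the lowest mean in 31 of the 37 members and YAP-S CCA the highest in 29. In 27 members, both mixed means lay between a lower YAP-SY CCA mean and a higher YAP-S CCA mean. This order of means was not counted over all genes, so it cannot be called particular to the members. Of all genes tested, 52.6% lay without overlap between the CCA groups.

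The level of a subunit was also set against a second gene within the same tumor, which removes the scaling of libraries. Of 21 such pairs, the log2 ratio of counts lay lower in YAP-SY CCA than in YAP-S CCA without overlap in 9 and higher in 7. No such count was made over other gene pairs, and of single genes tested 52.6% lay without overlap between these groups. The count of pairs is therefore a description only. With 3 tumors against 3, the smallest p that an exact two-sided permutation test allows is 0.1, so none of these can pass 0.05. The epithelial beta subunit Itgb4 against Itgb1 had log2 ratios of -5.76, -7.90 and -6.49 in YAP-SY CCA and -4.48, -4.08 and -4.14 in YAP-S CCA tumors (exact p 0.1, adjusted 0.25 over 42 tests). Itga3 against Itga5 had -1.57, -1.93 and -1.58 in YAP-SY CCA and -0.23, -0.14 and -0.28 in YAP-S CCA tumors. Both pairs thus show an epithelial receptor subunit lower relative to a broadly used one. Lama3 against Lama5 went the other way, with -1.41, -0.01 and -0.67 in YAP-SY CCA and -3.66, -3.30 and -3.88 in YAP-S CCA tumors. Itgal against Itgb2 had 0.60, 0.31 and 0.25 in YAP-SY CCA and -0.43, -0.43 and -0.25 in YAP-S CCA tumors, and Itgax against Itgb2 had -0.57, -0.48 and -0.43 in YAP-SY CCA and 0.63, 0.13 and 0.36 in YAP-S CCA tumors. Itgal and Itgax thus stood on opposite sides of their YAP-S CCA values relative to the shared beta subunit. Lama4 against the endothelial gene Pecam1 had -1.51, -1.23 and -1.31 in YAP-SY CCA and -0.30, 0.16 and -0.20 in YAP-S CCA tumors. Itgav against Epcam, at 2.88, 3.78 and 3.13 in YAP-SY CCA and 3.65, 4.11 and 3.22 in YAP-S CCA tumors, overlapped. In mixed tumors only Itgb6 against Itgb5 was without overlap, lower in YAP-SY by 0.55 on the log2 scale.

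**Figure D4:**
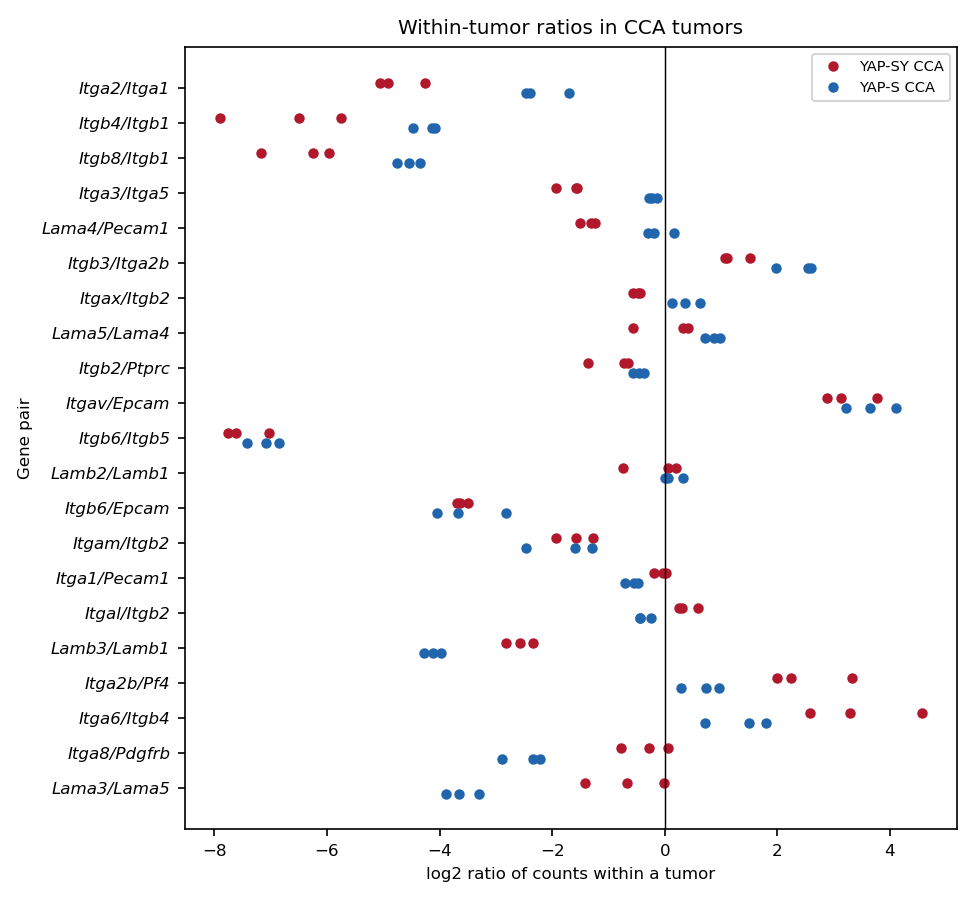
Points are tumors and rows are the 21 gene pairs, with the log2 ratio of counts within a tumor on the horizontal axis. YAP-SY CCA tumors lie left of the YAP-S CCA tumors without overlap in 9 pairs and right of them in 7.

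Other genes of the pathway were read from 3 lists. Of 20 proteins that join integrins to the cytoskeleton, 8 fell and 1 rose in YAP-SY CCA, with a median of -0.44. That is 45% called in either direction, near the 39.1% of all genes tested. By direction, 20.8% of all genes fell and 18.3% rose, which are the shares to set beside the falls and rises of all 3 lists. Tns3, a tensin (-1.08), Pxn, the focal adhesion adaptor paxillin (-0.77), and Zyx, zyxin of stress fibers (-1.38), had the smallest p, with adjusted p of 0.000191, 0.00125 and 0.00158 in that order. Fermt2, kindlin of many cell types, rose by 0.57 on the log2 scale (adjusted p 0.0197); it was named because it was the only one that rose, after its value was seen. Of 17 other basement membrane genes 16 were tested and 11 fell, with a median of -1.47, led by Col15a1, a collagen of vascular basement membranes (-2.66, adjusted p 0.000107), Col4a2 (-2.09, 0.000161) and Col4a1 (-2.05, 0.000175), the main chains of the collagen network. Of 19 other integrin ligands, 12 fell and 4 rose, with a median of -1.37, and the same median with Madcam1, which had no count in any YAP-SY CCA tumor, set to the bound that 3 counts give. Postn (-1.81, adjusted p 9.9e-05), Ctgf (-2.58, 0.000107) and Cyr61 (-1.47, 0.00016) had the smallest p; Ctgf and Cyr61 are also known YAP targets. The 4 that rose, Fga, Fgb, Fgg and Vtn, are secreted by hepatocytes, and were named after their values were seen. In mixed tumors none of these genes passed. In the interaction, where 10.2% of all genes passed lower and 5.02% higher, 5 of 20 cytoskeletal partners, 9 of 16 basement membrane genes and 9 of 19 ligands passed lower, and 3 ligands higher, led by Tns3 (-0.93), Pxn (-0.87) and Zyx (-1.37), by Col15a1 (-2.51), Col4a2 (-1.93) and Col4a1 (-1.80), and by Postn (-2.03), Ctgf (-2.24) and Vcam1 (-2.39). Col15a1 (-1.19, 0.0398), Agrn (-0.94, 0.0442), Postn (-1.22, 0.0129), Ctgf (-1.73, 0.0129) and Tnc (-2.01, 0.0263) also passed as lower in YAP-SY CCA than in YAP-SY mixed tumors, given as log2 fold change and adjusted p. In that contrast 2 of 16 basement membrane genes and 5 of 19 ligands passed, all lower, against 2.7% of all genes lower. With only those groups fitted, or without YAP-SY CCA tumor 6, no gene at all passed, so these calls were lost.

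SB1 cells show which members this line transcribes. The line was checked against the same markers. Krt19 was at 1101, 1403 and 1781 CPM, Krt7 at 236, 169 and 272 CPM and Sox9 at 40.5, 33.2 and 42.8 CPM, whereas Epcam was at most 0.396 CPM and Cldn7 was at 0. Hepatocyte markers summed to 689 to 1200 CPM and endothelial markers to 0.295 to 0.720 CPM. Fibroblast and stellate markers summed to 460 to 614 CPM, with Dcn at 192, 220.1 and 322 CPM and Lum at 0, and of the white blood cell markers Csf1r was at 61.3, 36.2 and 65.8 CPM while Ptprc was at most 0.114 CPM. Thus bile duct keratins were high, but some epithelial genes were at or near 0 and some transcripts of other cell types were present. The line was scaled by TMM among its own 3 samples, so levels beside tumors were described and not tested.

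In SB1 15 members lay above every tumor. They included Itgb1 at 923, 859.6 and 894 CPM, Itga3 at 752, 596 and 952 CPM, Lama5 at 763, 793 and 1015 CPM, Lamc1 at 647, 693 and 617 CPM, Itgav at 302, 264 and 349 CPM, Lamb2 at 237, 228 and 278 CPM, Lamb1 at 141, 142 and 170.1 CPM, Lamb3 at 18.9, 14.8 and 38.7 CPM and Itga2 at 23.1, 16.1 and 33.0 CPM. Itga5, Itga6 and Itgb3 were also among them. So was Itga2b, named above as a platelet subunit, at 5.63, 4.87 and 5.98 CPM, against at most 3.53 CPM in a tumor. Per kilobase Itgb1 led (mean 219), followed by Itga3 (134), Lamc1 (78.9) and Lama5 (75.3), and Lama5 made up 95.3 ± 0.88% of the alpha chains (SD, n = 3). Of these 15, 11 fell in YAP-SY CCA tumors, with a median of -1.27, where 20.8% of all genes fell. Near 0 in SB1, under a mean of 0.5 CPM with at least 5 CPM in YAP-S CCA tumors, were 8 members, a limit chosen after the values were seen. They were the leukocyte subunits Itgae, Itgal, Itgam and Itgax, then Itga8, Itga9, Lama2 and Lama3. Itgax was at 0, 0 and 0.152 CPM, Itga9 at 0.0655, 0.0793 and 0.114 CPM and Lama3 at 0.295, 0.555 and 0.568 CPM, where 3 counts are 0.0983 to 0.119 CPM. Of these 8, 5 fell in YAP-SY CCA tumors, with a median of -0.81, beside the same 20.8% of all genes. Of all 37 members 24 fell, or 64.9%, which is the share to set beside those of the SB1 classes. Below every tumor, though above that limit, were Itga1, Itga10, Itga4, Itgb2 and Lama1, of which 1 fell. The other 9 overlapped the tumors' range, and 7 of them fell. Among them were Itgb4 at 8.94, 7.09 and 15.9 CPM and Itgb8 at 10.4, 6.7 and 9.28 CPM. Lama4 was at 44.4, 39.7 and 41.3 CPM and Itgb5 at 82.7, 90.4 and 102 CPM. Lamc3, at 1.05, 0.911 and 1.52 CPM, lay partly below the lowest tumor, which held 1.46 CPM. Itga7, at 8.06 to 15.5 CPM, ran past both ends of the tumors' 8.41 to 14.3 CPM. The integrins summed to 2095 to 2710 CPM and the laminins to 1959 to 2303 CPM in SB1.

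**Figure D5:**
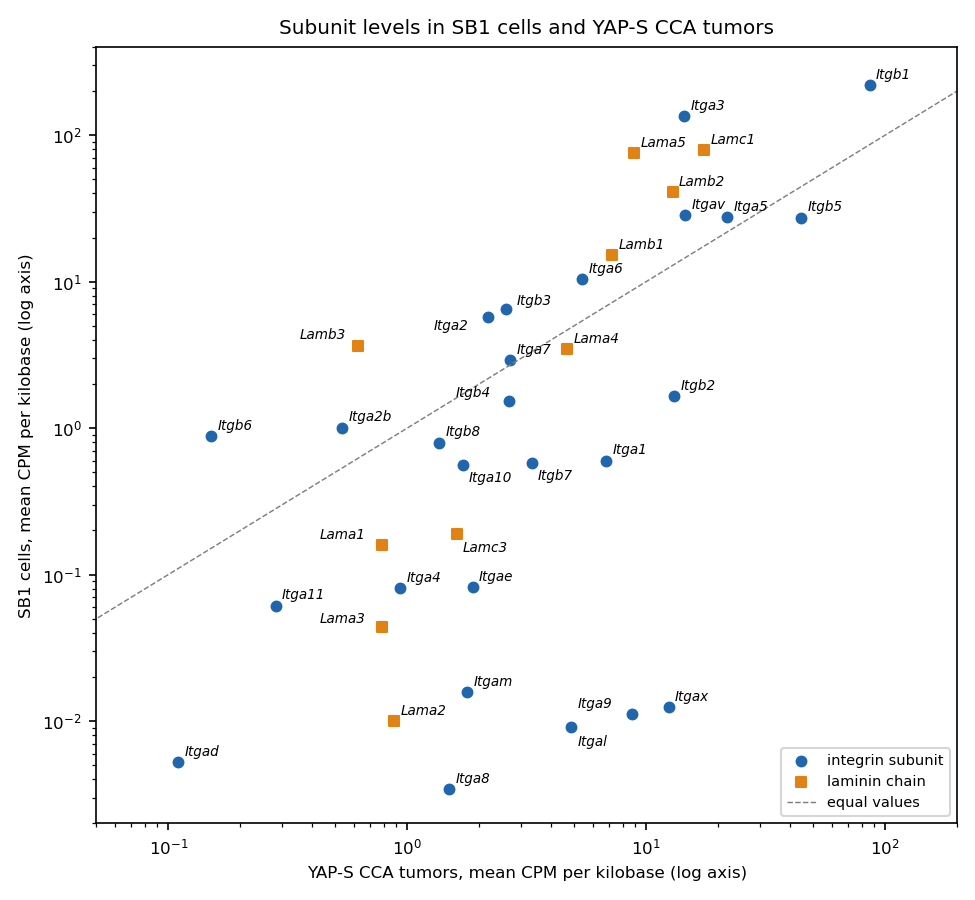
Points are 36 members, with the mean of the 3 YAP-S CCA tumors on the horizontal and of the 3 SB1 samples on the vertical axis, both as CPM per kilobase on log axes; the dashed line marks equal values. Itgb1, Itga3, Lama5, Lamc1 and Lamb2 lie above the line, and Itgax, Itga9, Itgal and Itga8 far below it.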

How the data were processed

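Per the labels' protocols, RNA came from mouse tumor nodules and cell lines, extracted with a miRNeasy micro kit, and libraries were made with a TruSeq mRNA kit; that kit does not mark strand. STAR and the mm10 build are named in the submitters' processing notes; the counter, the annotation and the correction that the tumor table's name refers to are not given in the sources used here. The values deposited by the authors are whole-number counts per gene, in 1 table of 12 tumors and 1 that holds the 3 SB1 samples; 3 other columns of the second table match no sample and were not used. Groups came from the labels.

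Counts of the 12 tumors were filtered by edgeR's filterByExpr, scaled by TMM and fitted together with 1 term per group (edgeR 4.0.16, R 4.3.3). The 5 contrasts used the quasi-likelihood F-test with Benjamini-Hochberg adjustment over all genes tested, and the SE of a log2 fold change is its size over the root of F. CPM use TMM-scaled totals; SB1 was scaled alone. Floors of 3 counts cover counting error only. Alternatives were other scalings, filters and tests (DESeq2 1.42.0, limma 3.58.1 with voom), fits of the compared groups alone, and fits without 1 tumor. On simulated counts of 17773 genes for the CCA comparison, edgeR recovered 51% of changes of 1 and 82% of changes of 2 on the log2 scale, with 4 false calls. DESeq2's Wald test made 50 false calls there. Only 100 genes of each size were changed, evenly up and down, whereas 39.1% of genes passed in the tumors. The simulation therefore does not test scaling or false calls under so broad a difference.

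Values are given per tumor for members that passed in any contrast and whose higher group averaged 5 CPM or more, and for a set of epithelial members whatever their test; of other lists, the 3 with the smallest p are named. 1 member and 1 marker gene are not reported here by name. Members and lists were chosen with earlier results of these data known. Overlapping exons were read from GENCODE M21, in which all 37 members were found and 27 have the coordinates of the table. On either strand, 12 members shared exon bases with another gene, and 2, Itga10 and Itgam, shared more than 10%. Itgad, which had few counts, shared 8.6%, 7.32%, 2.26% and 1.55% of its exon bases with single other genes. Promoter windows are RefSeq's.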

Additional observations from a re-analysis of the deposited data

Results flagged for a closer look

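The YAP-SY effect differed between CCA and mixed tumors past the threshold of the interaction test (edgeR, adjusted over all genes) in 18 members, each with a lower effect in CCA; values are differences of log2 fold changes. For laminin chains they were -1.54 for Lamb1, -1.43 for Lama4, -2.32 for Lama5, -1.24 for Lamc1 and -1.76 for Lamb2. For integrins not confined to white blood cells they were -1.50 for Itgav, -2.26 for Itga3, -2.64 for Itgb4, -2.45 for Itga2, -1.95 for Itgb8, -0.88 for Itgb5, -0.73 for Itga9 and -2.07 for Itga11. For leukocyte integrins they were -2.93 for Itgax, -3.85 for Itgae, -2.87 for Itgb7, -1.80 for Itgb2 and -3.74 for Itgad, whose level was at most 0.655 CPM in any tumor. Of 12 fits that each left out 1 tumor, the call was lost in 10 for Itgad, 9 for Itgb5, 6 for Itga11 and 3 for Itgb2. It was lost in 1, that without YAP-S mixed tumor 2, for Itga9, Itgb7, Itgb8 and Lamb2. By voom it was lost for Itgad, Itga11, Itgb5, Itgb2 and Itgb7.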

How the results depend on the processing

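No paired analysis was possible because the groups compared share fewer than 2 numbers. In CCA, 20 of the 24 calls were kept in every alternative and 21 in every fit without 1 tumor, where 21 to 25 members fell and 0 to 1 rose; voom had 1 riser. The lost calls included Itgb6, Itgal and Itgam. Of the 18 interaction calls 10 were kept in every alternative, with 10 to 19 in fits without 1 tumor. In YAP-SY CCA against YAP-SY mixed tumors, members lower numbered 18 by library size alone, 9 by upper quartile, 18 by DESeq2's Wald test, 0 by voom, 11 with no filter, 0 with only those groups and 0 to 7 without 1 tumor. In YAP-S CCA against YAP-S mixed tumors, 1 was lower by voom and 1 with only those groups, and members higher numbered 1 by DESeq2 size factors, 8 by library size alone, 1 by upper quartile, 12 by DESeq2's Wald test, 17 by voom, 7 with no filter, 13 with only those groups and 0 to 4 without 1 tumor. The cause was not tested. Over single members and alternatives, 1053 values kept their direction and side of the threshold, 94 lost a call and 20 gained one. The sign turned for no member called in the CCA comparison, where library size alone gave -0.54 for Lamb3, -0.11 for Itga8 and -0.37 for Itga1, beside a median of -0.57 over all genes. Itga7 was 0.0027 by DESeq2 size factors, 0.0027 by the Wald test and 0.075 by voom, and Itga2b was 0.14 by voom. Without 1 tumor, log2 fold changes were -0.064 to 0.17 for Lamb3, -0.11 to 0.14 for Itga7 and -0.28 to 0.039 for Itga2b. Ratio differences were then -0.47 to 0.000325 for Lamb2/Lamb1, -0.15 to 0.44 for Itgam/Itgb2 and -0.36 to 0.25 for Itgb6/Epcam, which was 0.14 with a pseudocount of 5. Depth limits Itgad, Itgb6 and Itga11, which were at most 1.67 CPM.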
